A study of Mus musculus with 8 samples.

Results

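Actinomycin D, an inhibitor of transcription, was compared with no inhibitor in 4T1 mouse mammary tumours dissociated at 37C, across the annotated cells of 4 of the 8 single-cell libraries of the series. The members were chosen by their labels alone: the 37C libraries with inhibitor, aliquots A and B, against the 37C libraries without inhibitor, aliquots A and B. These libraries held 433 of the 654 cells with a deposited cell type. The cells comprised 107 and 112 cells with inhibitor and 99 and 115 cells without. The remaining 4 libraries, from dissociation at 4C, held 221 cells and entered here to share the estimate of spread and to give a reference for the inhibitor without warming.

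Tumours came from Balb/c mice injected under the skin with 4T1 cells, an epithelial mammary carcinoma line of that strain, and were taken after 10 days. For each condition 6 pieces from different mice were pooled and digested for 1 h with a protease of Bacillus licheniformis at 5 mg/ml. The inhibitor group had actinomycin D at 2 nM in the digestion mix and the group without inhibitor did not. Both groups were mixed in a heated dissociator at 37C and were then put on ice, depleted of red cells, debris and dead cells, and profiled from the 3′ end of transcripts on a droplet system (ddSEQ). Each condition was 1 suspension split into aliquots A and B. All p-values below therefore measure the spread between aliquots and not between tumours, and pools of tissue pieces cannot be told apart from the inhibitor.

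Actinomycin D binds DNA and stops RNA polymerases from moving along it. Immediate-early genes are switched on within minutes of a stimulus from transcription factors that are already present in the cell, and they encode further factors such as FOS, JUN and EGR1 as well as the phosphatases and RNA-binding proteins that end the signal. Their mRNAs are short-lived, so their level follows recent transcription. Warm enzymatic digestion of tissue is a known stimulus of this kind, and transcription inhibitors are added to such digestions for that reason.

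Annotated cells carried 199929 and 195714 unique molecular identifiers (UMIs, each counting 1 captured mRNA molecule) with inhibitor and 158314 and 164586 without. No annotated cell barcode was shared between any of the 6 pairs of these libraries, although 13 to 19 of the 2999 to 3000 barcodes listed per library were. The authors' labels were checked against marker lists: T-cell markers took 1.9% and 2.01% of the UMIs of cells called T cells with inhibitor and 1.45% and 1.32% without, against at most 0.0222% in tumour cells or macrophages. Macrophage markers took 4.56% and 3.86% with inhibitor and 3.57% and 2.7% without in cells called macrophages. NK cells were left out of this check, so it does not show how cleanly T cells and NK cells were split. At least 3 UMIs of NK-cell markers were found in 3 of 11 and 2 of 10 T cells with inhibitor. Without inhibitor they were found in 7 of 28 and 5 of 23 T cells. NK cells held 20.5% of the Cd8a UMIs and 19.4% of the Cd8b1 UMIs without inhibitor. The clusters were not pure. B-cell markers reached 3 and 3 UMIs in T cells with inhibitor and 23 and 74 without, and mast-cell markers reached 346 and 4 UMIs in macrophages with inhibitor and 405 and 51 without.

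T cells made up a smaller part of the annotated cells with inhibitor, and macrophages a larger part. T cells were 10.3% and 8.93% of cells with inhibitor, against 28.3% and 20% without. The groups did not overlap, and the mean difference was -14.5 percentage points. Macrophages were 30.8% and 21.4% with inhibitor, against 18.2% and 14.8% without. These groups did not overlap either. Tumour cells were 51.4% and 67.9% with inhibitor and 41.4% and 58.3% without, and natural killer (NK) cells were 7.48% and 1.79% with inhibitor and 12.1% and 6.96% without. Both of these overlapped between groups, although within each aliquot letter tumour cells were higher and NK cells lower with inhibitor. With 2 libraries against 2, an exact permutation test cannot give a p below 0.333. It gave 0.333 for T cells and macrophages and 0.667 for tumour cells and NK cells (two-sided). Since T cells supplied 6.52% of annotated UMIs with inhibitor and 17.3% without, a difference over all annotated cells can come from fewer cells of a type or from less RNA of a gene per cell. For this reason each result over all cells is followed below by its values within cell types.

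**Figure D1:**
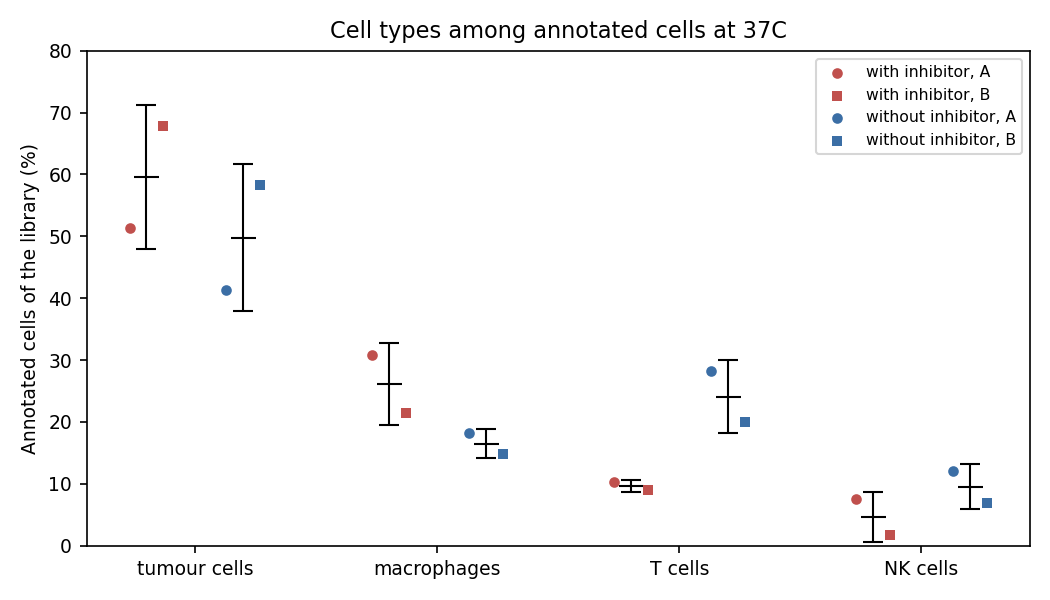
Share of each deposited cell type among the annotated cells of the 4 libraries at 37C, in percent; points are libraries and bars mark the mean and SD of 2 aliquots. T cells lay at 10.3% and 8.93% with inhibitor, below the 28.3% and 20% without, and macrophages lay above.

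Early-response genes took a smaller share of UMIs with inhibitor in tumour cells, in macrophages and in T cells. The 72 measured genes of 3 lists (AP-1 and ATF factors, the EGR, KLF, IER and NR4A families, and early feedback regulators) took 0.543% and 0.594% of annotated UMIs with inhibitor, against 1.31% and 1.20% without. The groups were far apart relative to their spread, with means of 0.568% ± 0.0357 with inhibitor and 1.25% ± 0.0756 without (SD, n = 2 each, exact permutation p = 0.333, the smallest possible). Within tumour cells the share was 0.494% and 0.593% with inhibitor, against 1.21% and 1.10% without. Within macrophages it was 0.558% and 0.586% with inhibitor, against 1.30% and 1.27% without. Within T cells it was 0.509% and 0.537% with inhibitor, against 1.62% and 1.5% without. These 3 types came to nearly the same level with inhibitor, and T cells had the highest level without it. NK cells, with 8 and 2 cells with inhibitor and 12 and 8 without, stood at 1.05% and 1.18% with inhibitor and at 1.23% and 1.6% without, which did not overlap but lay close together. Barcodes of over 5000 UMIs that carry no deposited cell type, and that entered none of the sums above, gave 0.608% and 0.576% with inhibitor, against 1.17% and 1.21% without. The 4C libraries had 0.642% and 0.629% with inhibitor and 0.548% and 0.545% without.

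**Figure D2:**
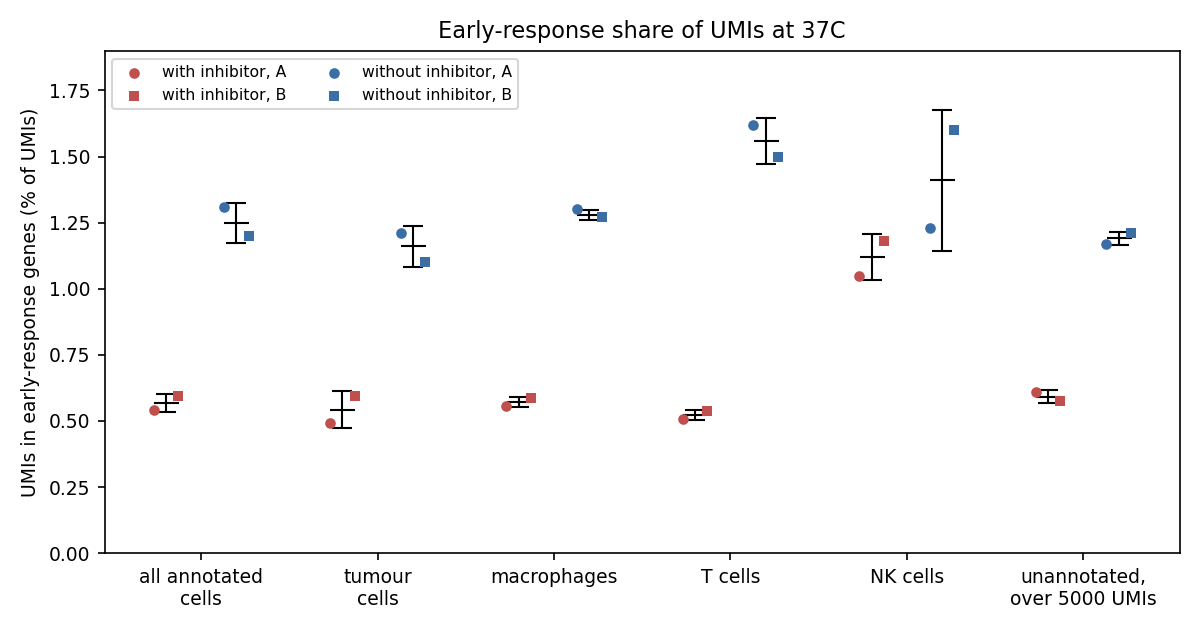
Share of UMIs in 72 early-response genes, in percent of the UMIs of each cell type, for the 4 libraries at 37C; points are libraries and bars mark the mean and SD of 2 aliquots. With inhibitor, tumour cells, macrophages and T cells lay between 0.494% and 0.593%, and without it between 1.10% and 1.62%.

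Over all annotated cells, 41 of 3391 genes tested differed (1.21%; edgeR quasi-likelihood test, Benjamini-Hochberg adjusted p under 0.05). Of these, 36 were lower with inhibitor (1.06%) and 5 were higher (0.147%). The median log2 fold change of all genes tested was 0.01, and 48.6% of them had a negative fold change. These shares are the background for the list counts below. Of the 41 genes, 40 are named here and 1, a predicted gene that was lower, is not. For the 40 named genes, no library with inhibitor overlapped a library without. They were called on these same libraries, so this is no separate support. The count depended on single libraries: it was 15 without aliquot A of the group lacking inhibitor, 21 without its aliquot B, 27 without aliquot B of the inhibitor group and 40 without its aliquot A. Tnfaip3, Traf1, Vps37b, Ier5, Klf2, Nfkbia and C1qc, 7 of the 40, passed in all 4 of these fits. Of the named genes that could still be tested, 27 of 37 lost the call without aliquot A of the group lacking inhibitor (edgeR adjusted p up to 0.827), 17 of 34 without its aliquot B (up to 0.807), 18 of 38 without aliquot B of the inhibitor group (up to 0.548) and 17 of 38 without its aliquot A (up to 0.249). DESeq2's Wald test called 8 of the 40, of which 7 were lower and 1 higher. Of the higher genes it called Ccl6 and did not call C1qa, C1qb, C1qc or Lgmn.

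Of the 14 early-response genes among the calls, the 5 with the smallest p that have a promoter in the RefSeq tables are shown with the bases before their start, since these are the genes that fell together (GRCm38.p6, each window at most 250 bases, 5′ to 3′ on the gene's strand). Capitals mark matches on either strand to any of the motifs searched.
Ier5, chr1:155099637-155099886, minus strand: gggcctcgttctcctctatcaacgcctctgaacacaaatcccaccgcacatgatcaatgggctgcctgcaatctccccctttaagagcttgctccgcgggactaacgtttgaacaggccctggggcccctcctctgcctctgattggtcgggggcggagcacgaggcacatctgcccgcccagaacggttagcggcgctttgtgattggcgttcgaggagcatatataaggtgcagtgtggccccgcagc
Fosb, chr7:19310052-19310295, minus strand: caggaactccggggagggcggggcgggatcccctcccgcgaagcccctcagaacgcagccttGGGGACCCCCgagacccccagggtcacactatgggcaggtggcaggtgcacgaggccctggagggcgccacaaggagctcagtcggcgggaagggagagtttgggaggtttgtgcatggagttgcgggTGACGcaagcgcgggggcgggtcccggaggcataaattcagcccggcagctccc
Nr4a3, chr4:48045055-48045152, plus strand: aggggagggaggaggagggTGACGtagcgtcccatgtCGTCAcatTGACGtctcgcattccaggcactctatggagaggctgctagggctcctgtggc
Dusp5, chr19:53528895-53529108, plus strand: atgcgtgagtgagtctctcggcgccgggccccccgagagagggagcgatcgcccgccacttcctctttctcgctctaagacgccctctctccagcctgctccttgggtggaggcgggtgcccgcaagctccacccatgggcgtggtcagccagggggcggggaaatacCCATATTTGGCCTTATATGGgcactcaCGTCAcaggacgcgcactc
Klf2, chr8:72318812-72319032, plus strand: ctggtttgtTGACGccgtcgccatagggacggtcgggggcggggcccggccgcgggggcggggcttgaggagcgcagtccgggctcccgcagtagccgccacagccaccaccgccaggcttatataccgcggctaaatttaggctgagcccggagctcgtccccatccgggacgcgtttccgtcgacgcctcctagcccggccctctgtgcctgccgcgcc

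The motifs were the cAMP-response element TGACGTCA, its core TGACG (contained in the longer form and added after the windows had been read), the AP-1 site TGANTCA, the TATA box TATAAA, and, by name, the CArG box bound by serum response factor and the NF-kB site. The Nr4a3 window held 3 cores, at 74, 56 and 48 bases before its end, and the Fosb, Dusp5 and Klf2 windows held 1 each. The Dusp5 window also held 2 adjacent CArG boxes, at 36 and 26 bases before its end, and the Fosb window held 1 NF-kB site. No motif matched in the Ier5 window, and the full cAMP-response element, the AP-1 site and TATAAA matched in none of the 5. Among 32817 RefSeq promoter windows of 250 bases, 17.7% held the core, 1.55% the full element, 6.75% the AP-1 site, 12.4% TATAAA, 1.47% a CArG box and 7.25% an NF-kB site. A match is a run of letters and not a measured site.

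Among the AP-1 and ATF factors, which pair up to bind DNA and drive the next wave of genes, 4 of 9 tested members fell over all annotated cells, none rose, and the list's median log2 fold change was -0.90. Of all 3391 genes tested, 1.06% fell. Fosb, a FOS family member, had 110 and 102 counts per 1000000 UMIs (CPM) with inhibitor, against 562 and 358 CPM without. Both inhibitor libraries lay far below the others, and the log2 fold change was -2.08 ± 0.35 (SE, edgeR adjusted p = 0.00278). Tumour cells held 73.9% of that difference. Within tumour cells Fosb stood at 127 and 120 CPM with inhibitor and at 698 and 443 CPM without (log2 fold change -2.17 ± 0.35, edgeR adjusted p = 8.67e-05). It had a UMI in 11 of 55 and 14 of 76 tumour cells with inhibitor and in 19 of 41 and 29 of 67 without. At most 10 of its UMIs came from 1 cell, so many cells contributed.

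Junb, a JUN family member, had 205 and 434 CPM with inhibitor, against 1160 and 814 CPM without (log2 fold change -1.6 ± 0.38, edgeR adjusted p = 0.0394). The groups did not overlap, although aliquot B with inhibitor was well above aliquot A. Junb was the gene of this list that fell in both tumour cells and T cells. In T cells it had 245 and 211 CPM with inhibitor, against 1240 and 1570 CPM without (log2 fold change -2.66 ± 0.47, edgeR adjusted p = 0.0144). In tumour cells it had 229 and 473 CPM with inhibitor, against 1110 and 717 CPM without (log2 fold change -1.33 ± 0.29, edgeR adjusted p = 0.00516). The difference between the T-cell and tumour-cell log2 fold changes was -1.26 ± 0.74 and did not pass (edgeR adjusted p = 1.0).

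Atf3, a stress-induced ATF factor, fell over all cells, with 65.0 and 66.4 CPM with inhibitor and 202 and 237 CPM without (log2 fold change -1.70 ± 0.40, edgeR adjusted p = 0.0348), and 89.7% of its difference lay in tumour cells. Fosl2 fell too (log2 fold change -1.6 ± 0.38, edgeR adjusted p = 0.0394), and its difference was spread over T cells (39.0%), macrophages (28.0%), NK cells (21.9%) and tumour cells (11.1%). Fos and Jun, the founding members of AP-1, did not pass. Fos had 190 and 363 CPM with inhibitor and 651 and 401 CPM without, and Jun had 255 and 250 CPM with inhibitor and 360 and 358 CPM without. The groups did not overlap for either gene, but their log2 fold changes of -0.90 ± 0.33 and -0.48 ± 0.31 had edgeR adjusted p of 0.303 and 0.798. In both, tumour cells held most of the difference (86.5% for Fos and 67.4% for Jun).

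In the EGR, KLF, IER and NR4A families, 4 of 14 tested members fell over all annotated cells and 14 of 14 had a negative fold change, with a median of -1.55. Of all genes tested, 1.06% fell and 48.6% had a negative fold change. Ier5, a regulator of heat shock factor and of phosphatase activity, had 50 and 97.1 CPM with inhibitor, against 335 and 395 CPM without (log2 fold change -2.27 ± 0.35, edgeR adjusted p = 0.00139). The groups were well separated. Its difference was shared by tumour cells (47.4%), T cells (34.3%), macrophages (12.6%) and NK cells (5.69%), and Ier5 was lower in the inhibitor libraries in each of these types. Within tumour cells the fall also passed (42.4 and 100 CPM with inhibitor, 286 and 319 CPM without, edgeR adjusted p = 0.00214).

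Klf2, a Kruppel-like factor that keeps lymphocytes and endothelium quiescent, had 170 and 204 CPM with inhibitor, against 613 and 589 CPM without (log2 fold change -1.65 ± 0.31, edgeR adjusted p = 0.00502). Tumour cells held 91.8% of the difference, with 220 and 247 CPM with inhibitor, against 961 and 797 CPM without, in those cells (log2 fold change -1.89 ± 0.29, edgeR adjusted p = 4.72e-05). T cells, where Klf2 is best known, had only 2 and 0 Klf2 UMIs with inhibitor and 5 and 4 without. Klf4, a related factor of epithelial cells, and Csrnp1, a nuclear protein first found as induced by axin, passed in tumour cells but not over all cells. Klf4 had 25.4 and 33.3 CPM in tumour cells with inhibitor, against 206 and 212 CPM without (log2 fold change -2.76 ± 0.52, edgeR adjusted p = 0.00085). Csrnp1 had 16.9 and 33.3 CPM there with inhibitor, against 252 and 88.5 CPM without (log2 fold change -2.60 ± 0.64, edgeR adjusted p = 0.0268).

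The NR4A orphan nuclear receptors, early genes of T-cell receptor signalling, were carried by lymphocytes and macrophages. Nr4a3 counted 8 and 0 UMIs over all annotated cells with inhibitor and 52 and 30 without (log2 fold change -3.56 ± 0.63, edgeR adjusted p = 0.00427). Of the UMIs without inhibitor, 25 and 15 lay in T cells and 21 and 6 in NK cells, and the 8 with inhibitor comprised 7 in NK cells and 1 in a macrophage. T cells with inhibitor held none, which makes the gene at least 6.17-fold lower there against a floor of 3 UMIs over the group (edgeR adjusted p = 0.0278). Nr4a1 counted 12 and 6 UMIs with inhibitor and 61 and 29 without (log2 fold change -2.57 ± 0.48, edgeR adjusted p = 0.00642), with 65.3% of the difference in T cells and 30.1% in macrophages. In T cells Nr4a1 was 0 and 1 UMI with inhibitor and 32 and 18 without, a ratio of 23.1 with a 95% counting interval of 3.97 to 932 (edgeR adjusted p = 0.0215). Nr4a2 did not pass (50 and 30.7 CPM with inhibitor, 126 and 170 CPM without, edgeR adjusted p = 0.119). Egr1, Ier2, Ier3, Klf6 and Myc did not pass either, with log2 fold changes of -1.44, -0.88, -1.35, -1.12 and -0.80.

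Early feedback regulators end the signals that induced them. Of 23 tested members 6 fell, against 1.06% of all genes tested, none rose, and the median log2 fold change was -0.97. Dusp2 and Dusp5, phosphatases that switch off ERK kinases, fell with log2 fold changes of -2.79 ± 0.59 and -2.77 ± 0.51 (edgeR adjusted p = 0.0154 and 0.00502). T cells held 55.5% of the Dusp2 difference and 53.4% of that of Dusp5. Dusp2 was not detected in T cells with inhibitor (0 and 0 UMIs), against 10 and 13 UMIs without, nor in macrophages with inhibitor (0 and 0 UMIs), against 4 and 7 UMIs without. Btg2, an anti-proliferative gene that recruits mRNA deadenylases, fell with a log2 fold change of -1.47 ± 0.32 (edgeR adjusted p = 0.0218) and was carried by T cells (58.9%) and NK cells (30.9%). Bhlhe40, a transcriptional repressor of activated lymphocytes, fell with a log2 fold change of -1.86 ± 0.39 (edgeR adjusted p = 0.0145) and was carried by T cells (65.3%).

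Socs3 and Trib1 were carried by tumour cells. Socs3, which blocks JAK-STAT signalling, had 136 and 153 CPM in tumour cells with inhibitor, against 515 and 407 CPM without (log2 fold change -1.64 ± 0.34, edgeR adjusted p = 0.00358), and 94.9% of its overall difference lay there. Trib1, a pseudokinase, had 102 and 93.3 CPM in tumour cells with inhibitor, against 275 and 301 CPM without (log2 fold change -1.55 ± 0.38, edgeR adjusted p = 0.0261). Macrophages had 2 and 1 Trib1 UMIs with inhibitor and 9 and 7 without. Dusp1, a phosphatase, and Zfp36, an mRNA-decay factor, are often used as markers of dissociation and did not pass. Dusp1 had 130 and 61.3 CPM with inhibitor, against 171 and 213 CPM without, and Zfp36 had 110 and 194 CPM with inhibitor, against 253 and 279 CPM without.

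The NF-kB list, whose members include the factor's own inhibitors, had 5 of 12 tested members lower, none higher, and a median log2 fold change of -1.29. Over all genes tested, 1.06% were lower. Nfkbia encodes IkBa, the inhibitor that NF-kB induces first. It had 265 and 322 CPM over all annotated cells with inhibitor, against 1160 and 1050 CPM without (log2 fold change -1.88 ± 0.32, edgeR adjusted p = 0.00265). T cells held 59.6% of that difference, tumour cells 21.3%, macrophages 16.0% and NK cells 3.14%. Within T cells Nfkbia had 368 and 316 CPM with inhibitor, against 2700 and 3220 CPM without (log2 fold change -3.16 ± 0.39, edgeR adjusted p = 0.00132). It was found in 4 of 11 and 3 of 10 T cells with inhibitor, with at most 2 UMIs in a cell, and in 18 of 28 and 16 of 23 without, with up to 24 UMIs in a cell. The median depth per T cell was 1027 and 808.5 UMIs with inhibitor and 820 and 743 UMIs without, which overlapped. Macrophages showed 165 and 173 CPM with inhibitor and 1300 and 901 CPM without, and tumour cells 220 and 360 CPM with inhibitor and 607 and 602 CPM without. Neither of these passed within its type (edgeR adjusted p = 0.152 and 0.11).

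Tnfaip3, which encodes the deubiquitinase A20, had 65.0 and 25.5 CPM with inhibitor, against 347 and 365 CPM without (log2 fold change -2.91 ± 0.43, edgeR adjusted p = 0.0013). It was lower in the inhibitor libraries in all 4 cell types, and T cells held 56.1% of the difference. Traf1, an adaptor of TNF receptors induced by NF-kB, had 25.0 and 46.0 CPM with inhibitor, against 246 and 219 CPM without (log2 fold change -2.65 ± 0.41, edgeR adjusted p = 0.00139), with 65.9% in T cells and 21.9% in tumour cells. Nfkb1, the p105 subunit, fell with a log2 fold change of -1.29 ± 0.32 (edgeR adjusted p = 0.0491). Nfkbid, an atypical IkB of lymphocytes, counted 0 and 1 UMIs with inhibitor and 22 and 17 without, a ratio of 47.8 with a 95% counting interval of 8.09 to 1940 (edgeR adjusted p = 0.00996). Of those without inhibitor, 18 and 11 lay in T cells.

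Of the secreted factors, Csf2 and Cxcl3 fell and most others did not pass. Csf2 encodes GM-CSF, a growth factor of myeloid cells that activated T cells release. It counted 0 and 0 UMIs with inhibitor and 16 and 41 without (edgeR adjusted p = 0.00139), which is at least 23.3-fold lower against a floor of 3 UMIs over the group. Every Csf2 UMI lay in a cell called a T cell, in 3 of 28 and 4 of 23 such cells, and 30 of the 41 in aliquot B came from 1 cell. A Csf2 UMI was found in 0 of 21 T cells with inhibitor, against 7 of 51 (13.7%) without. A floor of 3 cells would put the share with inhibitor at up to 14.3%. Cells are not replicates of the condition, and a difference in this share was not tested. A cell without a UMI may still express the gene. Among T cells alone the bound was at least 8.79-fold lower (edgeR adjusted p = 0.0278). The call over all cells therefore rests on 7 cells without inhibitor.

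Cxcl3, a neutrophil-attracting chemokine, counted 26 and 0 UMIs with inhibitor and 38 and 101 without, all of them in macrophages (log2 fold change -2.66 ± 0.62, edgeR adjusted p = 0.0394). It too came from few cells: 6 of 33 and 0 of 24 macrophages with inhibitor and 4 of 18 and 3 of 17 without, and 95 of the 101 UMIs of aliquot B were in 1 cell. Within macrophages it did not pass (edgeR adjusted p = 0.32). Cxcl1, a tumour-cell product here, had 55.0 and 209 CPM with inhibitor and 114 and 225 CPM without, and overlapped. Il1b, of macrophages, had 410 and 71.5 CPM with inhibitor and 423 and 310 CPM without, and overlapped over all cells. Ccl2 overlapped as well, with 830 and 710 CPM with inhibitor and 423 and 917 CPM without. Ccl4 did not overlap, with 65.0 and 174 CPM with inhibitor and 341 and 340 CPM without, and did not pass (edgeR adjusted p = 0.101). In T cells Ccl3 counted 0 and 0 UMIs with inhibitor and 25 and 3 without, and Ccl4 counted 0 and 0 with inhibitor and 26 and 8 without. Of the chemokine and cytokine lists, 1 of 7 CXC genes, 0 of 9 CC genes and 2 of 10 cytokines fell, and 1 CC gene rose.

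The second cytokine that fell was Hbegf, a heparin-binding ligand of the EGF receptor, in tumour cells. It had 67.8 and 40.0 CPM in those cells with inhibitor, against 355 and 283 CPM without (log2 fold change -2.56 ± 0.43, edgeR adjusted p = 0.000123). It had at least 1 UMI in 8 of 55 and 6 of 76 tumour cells with inhibitor and in 20 of 41 and 19 of 67 without. Macrophages did not follow, with 165 and 173 CPM with inhibitor and 185 and 94.9 CPM without. Hbegf over all cells fell by 1.55 ± 0.38 on the log2 scale (edgeR adjusted p = 0.0445).

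Some T-cell genes fell over all cells, where the share of T cells was also lower. Of 15 T-cell markers, 2 fell over all annotated cells with a list median of -1.10, and none of the 12 tested within T cells passed, with a median of 0.46. The 2 that fell were Cd8a and Cd8b1, the chains of the CD8 co-receptor. Cd8a counted 0 and 4 UMIs with inhibitor and 21 and 18 without (edgeR adjusted p = 0.022). Cd8b1 counted 0 and 2 UMIs with inhibitor and 15 and 16 without, a ratio of 19 with a 95% counting interval of 4.83 to 164 (edgeR adjusted p = 0.0129). The groups did not overlap for either, and T cells held 74.8% and 79.6% of these differences. Neither was tested within T cells, where Cd8a had 0 and 421 CPM with inhibitor and 445 and 660 CPM without, and Cd8b1 had 0 and 211 CPM with inhibitor and 318 and 619 CPM without. Levels within types made up 61.9% of the Cd8a difference and 64.2% of that of Cd8b1. Of 13 activation receptors, 4 fell over all cells with a median of -1.38, and within T cells none of 9 passed with a median of 0.15. Icos, a co-stimulator of activated T cells, had 85.0 and 56.2 CPM over all cells with inhibitor, against 322 and 188 CPM without (log2 fold change -1.81 ± 0.38, edgeR adjusted p = 0.0154). Within T cells it had 982 and 1050 CPM with inhibitor and 1210 and 1200 CPM without (edgeR adjusted p = 0.78). Splitting the overall Icos difference gave 69.7% to the changed shares of UMIs among cell types and 30.4% to levels within types. The other co-stimulators called, Tnfrsf4 (OX40), Cd27 and Cd28, had 54.6%, 54.7% and 51.1% from levels within types. Within T cells Tnfrsf4 had 307 and 737 CPM with inhibitor and 1590 and 1240 CPM without, and did not pass (edgeR adjusted p = 0.114). Cd27 had 184 and 211 CPM there with inhibitor and 730 and 330 CPM without, and Cd28 had 368 and 316 CPM with inhibitor and 476 and 948 CPM without. For none of these 3 did the groups overlap within T cells, and Cd27 and Cd28 were not tested there. Of 4 further calls that T cells led, Ptpn22, a phosphatase that restrains T-cell receptor signalling, fell by 3.37 ± 0.62 on the log2 scale and Ramp3, a receptor-modifying protein, by 2.59 ± 0.57. Pdcd4, an inhibitor of translation, fell by 2.55 ± 0.63 and Samsn1, an adaptor singled out after its values were seen, by 1.83 ± 0.42 (edgeR adjusted p = 0.00502, 0.0218, 0.0491 and 0.0288). As group sums, T cells had 77.5 CPM of Ptpn22 with inhibitor and 413 CPM without. Ramp3 had 155 and 771 CPM there, and Pdcd4 had 155 and 269 CPM. Samsn1 had 543 CPM in T cells with inhibitor and 592 CPM without. T-cell levels gave 3.76% of its overall difference and T-cell shares of UMIs gave 39.2%. Macrophages had 56 CPM of Samsn1 with inhibitor and 458 CPM without, and their levels gave 48.4%.

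Ccr7, the 1 gene of 20 lymphocyte homing and memory genes that fell, guides naive and memory T cells, B cells and mature dendritic cells to lymph nodes. It counted 1 and 0 UMIs over all cells with inhibitor and 37 and 35 without, a ratio of 88.2 with a 95% counting interval of 15.3 to 3530 (edgeR adjusted p = 0.000427). Within T cells it was 0 and 0 with inhibitor and 34 and 34 without (at least 10.5-fold lower, edgeR adjusted p = 0.00209), and these UMIs lay in 3 of 28 and 4 of 23 cells. In aliquot A 19 of the 34 came from 1 cell, and in aliquot B 16 of the 34 did. The Ccr7 call therefore rests on few cells, and the fits below that leave out 1 library draw on these same cells. The cells with at least 3 UMIs of B-cell markers in the T-cell cluster, 1 and 2 cells without inhibitor, held no Ccr7 UMI. A cell with at least 3 UMIs of other dendritic-cell markers held 8 of the 34 in aliquot B. Ccr7 passed in T cells in all 4 fits that left out 1 library, and was 1 of 3 T-cell genes called by DESeq2.

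Within T cells alone, 9 of 347 tested genes fell and none rose (2.59%). They were Ccr7, Csf2, Nr4a3, Nr4a1, Hilpda, Nfkbia, Junb, Id2 and Tnfaip3. Hilpda, a lipid-droplet protein induced by hypoxia, counted 1 and 0 UMIs in T cells with inhibitor and 22 and 16 without (edgeR adjusted p = 0.0474). Id2, a repressor of E proteins needed by effector lymphocytes, had 245 and 105 CPM with inhibitor, against 1050 and 825 CPM without (log2 fold change -2.36 ± 0.53, edgeR adjusted p = 0.0426). In macrophages Id2 was not lower, with 219 and 231 CPM with inhibitor and 111 and 190 CPM without. The T-cell sums were thin, with 16297 and 9493 UMIs with inhibitor and 31492 and 24249 without, and the count of calls was 28 without aliquot B of the inhibitor group, 14 without aliquot A of the group lacking inhibitor, 8 without aliquot A of the inhibitor group, 10 without aliquot B of the group lacking inhibitor, and 2 when 4C libraries with enough T cells were added. Ccr7, Nfkbia and Junb passed in all 4 fits, and Csf2 in the 3 that tested it. Without aliquot A of the group lacking inhibitor, Nr4a3, Nr4a1, Hilpda and Id2 lost the call (edgeR adjusted p of 0.894, 0.724, 0.894 and 0.484), and without its aliquot B Nr4a3, Hilpda and Tnfaip3 did (0.213, 0.62 and 0.0628). Without aliquot A of the inhibitor group Nr4a1, Hilpda and Id2 lost it (0.101, 0.0565 and 0.0706), and without its aliquot B Id2 and Tnfaip3 did (0.0881 and 0.116).

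Within tumour cells, 17 of 2481 tested genes fell (0.685%) and 2 rose (0.0806%), together 0.766%. Of the 17, 15 are named here. Beside the early genes above, the falls included Ccn1, an extracellular matrix protein and early gene of adhesion signals, with 84.7 and 60.0 CPM with inhibitor, against 355 and 186 CPM without (edgeR adjusted p = 0.0104). Nupr1, a stress-induced chromatin protein, had 169 and 180 CPM with inhibitor, against 435 and 452 CPM without (edgeR adjusted p = 0.0299). Mt1 (metallothionein), Myadm and Lgals3 (galectin-3) fell with log2 fold changes of -1.32, -1.41 and -0.86 (edgeR adjusted p = 0.026, 0.0446 and 0.0403). Ccn1, Nupr1, Myadm and Lgals3 belong to no list and were singled out after their values were seen. The count of calls was 7 without aliquot A of the inhibitor group, 11 without its aliquot B, 13 without aliquot B of the group lacking inhibitor and 32 without its aliquot A. Of the 17 named genes, 12, 10, 7 and 4 lost the call in these fits, with edgeR adjusted p up to 0.953, and Fosb and Klf2 kept it in all 4.

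**Figure D3:**
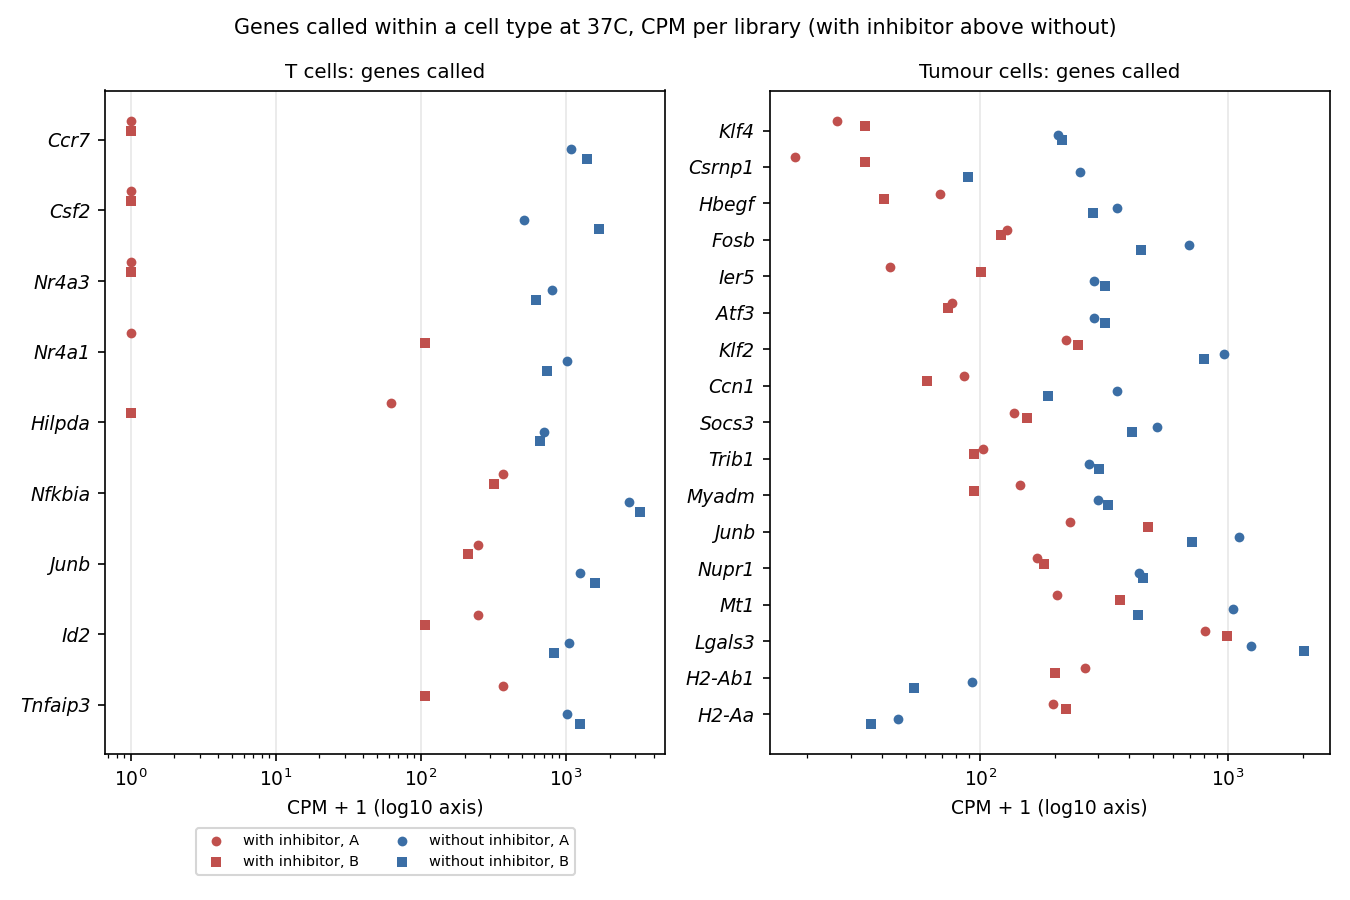
CPM plus 1 (log10 axis) in each library for the 9 genes called within T cells (left) and the 17 named genes called within tumour cells (right), with the libraries with inhibitor drawn above those without; a value of 1 is a count of 0. The groups do not overlap for any gene shown, all of them called on these same libraries, and H2-Aa and H2-Ab1 are higher with inhibitor.

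To set out which cell types carry each change, every gene's difference in CPM was divided exactly over the 4 types. Of the 35 named genes that fell over all cells, T cells held the largest part for 25, tumour cells for 8, macrophages for 1 (Cxcl3) and NK cells for 1 (Vps37b, an ESCRT component, with 53.4%). The 8 of tumour cells were Hbegf, Socs3, Klf2, Atf3, Fosb, Trib1, Ier5 and Junb. For 33 of the 35, more than 50% of the difference came from levels within cell types rather than from the shares of the types. The exceptions were Icos and Ablim1, an actin-binding LIM protein singled out after its values were seen, at 36.5% from levels. When each library was weighted to the same cell-type makeup, 23 genes passed (limma on log2 of CPM plus 10), of which 20 were among the 41, and 41 of 41 kept their sign. The same limma fit without the weighting called 56 genes, of which 39 were among the 41. The like comparison for the weighting is therefore 56 against 23. The division is a description with no test: a formal test of the difference in fold change between T cells and tumour cells called 0 of 1832 genes (edgeR, 72 at unadjusted p under 0.05). A type that holds most of a gene's difference is therefore not shown to have responded more strongly per cell, nor are the types shown to act alike.

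**Figure D4:**
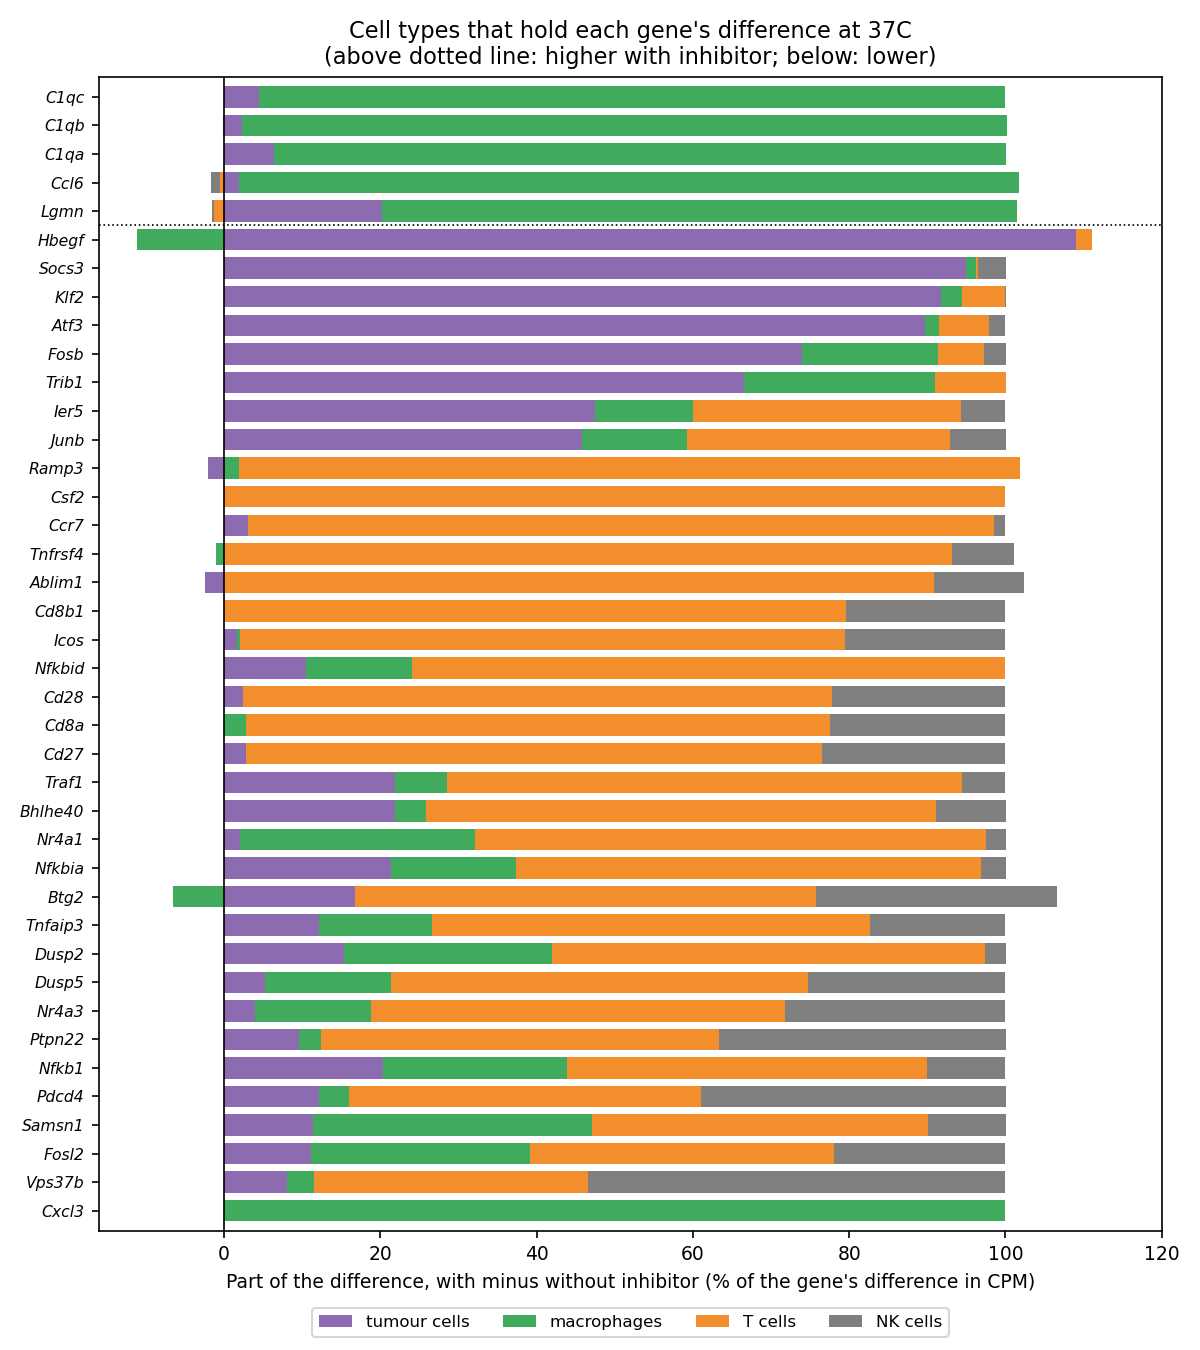
Part of each gene's difference in CPM over all annotated cells, with minus without inhibitor, that lies in each cell type, in percent of the gene's difference, for the 40 named genes called; the parts of a gene sum to 100%. Macrophages hold the 5 higher genes, tumour cells hold the 8 lower genes from Hbegf to Junb, and T cells hold most of the others.

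The 5 genes that rose over all annotated cells were macrophage genes. C1qa, C1qb and C1qc encode the chains of complement C1q, lie side by side at chr4:136880129-136898803 (GRCm38) and are made by tissue macrophages. C1qc had 545 and 567 CPM with inhibitor, against 94.7 and 115 CPM without (log2 fold change 2.41 ± 0.42, edgeR adjusted p = 0.00369). C1qb had 435 and 455 CPM with inhibitor, against 152 and 79.0 CPM without, and C1qa had 480 and 439 CPM with inhibitor, against 164 and 128 CPM without (edgeR adjusted p = 0.0325 and 0.0394). For these 3 genes both aliquots with inhibitor lay far above both without, but DESeq2's Wald test called none of the 3. They were the edgeR calls among 15 macrophage markers tested over all cells, whose median log2 fold change was 1.15. Within macrophages, 17 markers of the list were tested, none passed, and the median was 0.42. Ccl6, a CC chemokine of macrophages, had 1600 and 1370 CPM with inhibitor, against 550 and 614 CPM without, and Lgmn, a lysosomal protease and the call among 21 lysosome genes tested, had 605 and 419 CPM with inhibitor, against 164 and 237 CPM without (edgeR adjusted p = 0.0144 and 0.0437).

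These gains stood beside the larger share of macrophages, which supplied 22.6% of annotated UMIs with inhibitor and 14.9% without. Macrophages held 93.6% to 99.8% of the difference of C1qa, C1qb, C1qc and Ccl6 and 81.3% of that of Lgmn. Levels within types made up 73.5% of the C1qc difference, 69.3% for C1qb, 64.0% for C1qa, 59.5% for Ccl6 and 65.2% for Lgmn. Within macrophages C1qc had 1970 and 3000 CPM with inhibitor, against 556 and 901 CPM without. It was found in 15 of 33 and 8 of 24 macrophages with inhibitor and in 4 of 18 and 4 of 17 without. In aliquot B with inhibitor, 43 of its 104 macrophage UMIs came from 1 cell. The groups did not overlap within macrophages for any of the 5 genes, yet none passed there, with edgeR adjusted p of 0.217 to 0.627. Arg1, the arginase of tumour macrophages, had 5920 and 6580 CPM within macrophages with inhibitor and 5640 and 6830 CPM without, and 8.63% of its overall difference came from levels within types. Apoe, a lipid carrier, had 7100 and 6930 CPM within macrophages with inhibitor and 5670 and 5460 CPM without (edgeR adjusted p = 0.777).

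**Figure D5:**
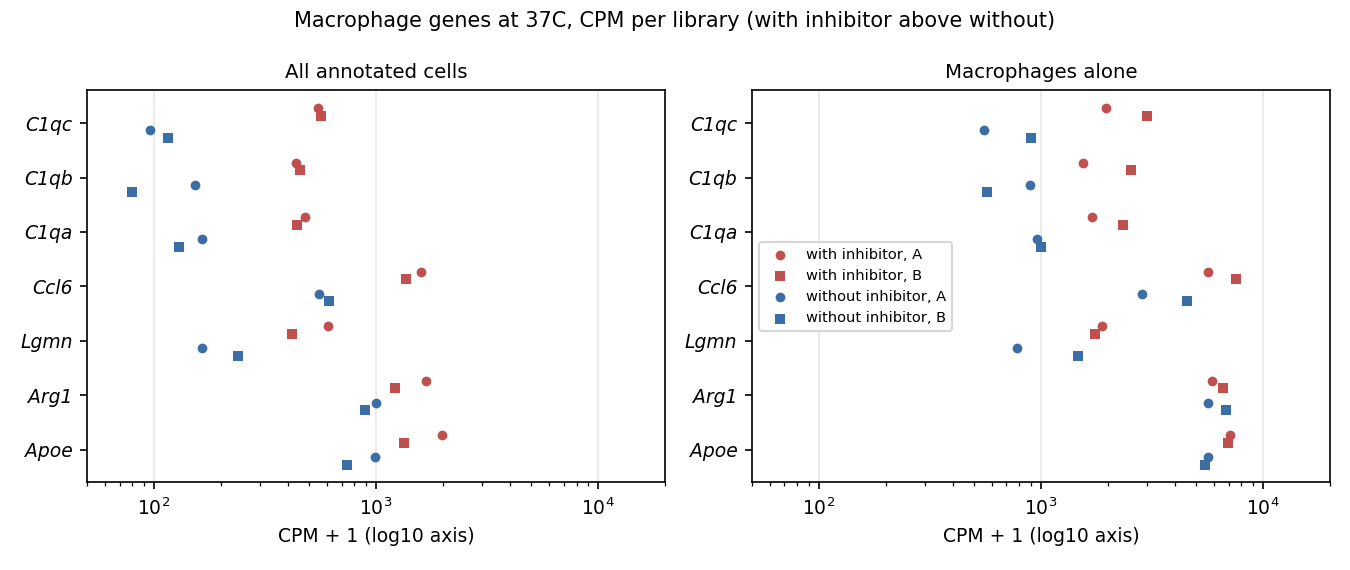
CPM plus 1 (log10 axis) in each library at 37C for the 5 genes higher with inhibitor and for Arg1 and Apoe, over all annotated cells (left) and within macrophages (right), with the libraries with inhibitor drawn above those without. The 5 genes do not overlap between groups in either panel, and Arg1 overlaps within macrophages.

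Within macrophages, 0 of 582 genes passed (edgeR, 57 at unadjusted p under 0.05; DESeq2's Wald test also called 0). Lower values with inhibitor were nonetheless found there for Nfkbia (above), Fosl2 (73.1 and 86.6 CPM with inhibitor, 482 and 427 CPM without) and Mcl1, an anti-apoptotic BCL2 relative (475 and 404 CPM with inhibitor, 1190 and 1190 CPM without), each at an edgeR adjusted p of 0.152. The groups did not overlap for any of the 3. With 2 libraries against 2, groups without any difference separate with a probability of 0.333. The share of all 582 genes that did so was not counted. The count of 0 turned to 5 without aliquot B of the inhibitor group, 18 without its aliquot A, 32 without aliquot A of the group lacking inhibitor and 36 without its aliquot B. In those fits a group has 1 library, which is assumed to vary like the other group.

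Class II antigen-presentation genes differed by cell type. H2-Aa and H2-Ab1, the chains of the I-A molecule on chromosome 17, were the 2 genes that rose in tumour cells. H2-Aa had 195 and 220 CPM in tumour cells with inhibitor, against 45.8 and 35.4 CPM without (log2 fold change 2.36 ± 0.50, edgeR adjusted p = 0.00422). H2-Ab1 had 263 and 200 CPM in tumour cells with inhibitor, against 91.5 and 53.1 CPM without (log2 fold change 1.70 ± 0.44, edgeR adjusted p = 0.0403). Without aliquot B of the inhibitor group the edgeR adjusted p was 0.0761 for H2-Aa and 0.0555 for H2-Ab1, without aliquot B of the group lacking inhibitor it was 0.148 and 0.631, and without aliquot A of the inhibitor group H2-Ab1 had 0.485. These levels were far below those of macrophages, where H2-Aa had 1810 and 4270 CPM with inhibitor and 5040 and 7830 CPM without and did not pass. H2-Aa was found in 14 of 55 and 14 of 76 tumour cells with inhibitor and in 3 of 41 and 2 of 67 without, with at most 7 UMIs in a cell. In T cells it counted 0 and 0 UMIs with inhibitor and 2 and 6 without. Macrophage markers moved in the same direction in tumour cells, with 52 and 83 UMIs with inhibitor and 10 and 16 without. Tumour cells with at least 3 such marker UMIs, 7 and 8 cells with inhibitor and 0 and 1 without, held 3 of 23 and 0 of 33 of the H2-Aa UMIs and 10 of 31 and 0 of 30 of the H2-Ab1 UMIs with inhibitor, and none of either gene without. The part of the other marker RNA in this result was not tested. The difference between the macrophage and tumour-cell fold changes passed for both H2-Aa and H2-Ab1, which were among 4 of 2195 genes (0.182%) in that comparison (edgeR adjusted p = 1.31e-06 and 0.000272).

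In the remaining lists, none of the tested members was called over all annotated cells among p53 targets (5 tested), the BCL2 family (7), heat shock genes (10), the unfolded protein response (12), ribosome biogenesis (20), RNA polymerase II and elongation factors (14), glycolysis and hypoxia (15), NRF2 targets (9), type 1 interferon genes (20), MHC class I (14), the actin cytoskeleton (24), the cell cycle (19) or the nuclear-encoded respiratory chain (31). Of 77 ribosomal protein genes none passed, and their median log2 fold change was 0.08 against 0.01 for all genes tested. Cdkn1a and Mdm2, targets of p53, had 200 and 138 CPM and 50 and 71.5 CPM with inhibitor, against 246 and 219 CPM and 31.6 and 72.9 CPM without. Of 8 long noncoding RNAs and snoRNA hosts none passed, Malat1 and Neat1 included (edgeR adjusted p = 1.0 and 0.971). Malat1 varied more between aliquots than between groups, with 425 and 81.8 CPM with inhibitor and 272 and 219 CPM without. A miss of the threshold does not show that a gene was unaffected.

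The same inhibitor at 4C gave no call over 3391 genes (edgeR, 172 at unadjusted p under 0.05). The 4C libraries were much thinner than those at 37C, with 34 and 54 annotated cells and 23212 and 44339 UMIs with inhibitor. Without inhibitor they had 59 and 74 cells and 52725 and 65149 UMIs. This limits both the test at 4C and the comparison with 37C that follows, so 0 calls do not show an absent effect. The test of whether the inhibitor acted differently at 37C than at 4C also called 0 genes (edgeR, 250 at unadjusted p under 0.05; DESeq2's Wald test called 0, with 106 at unadjusted p under 0.05). Nfkbia had 172 and 271 CPM at 4C with inhibitor and 152 and 276 CPM without. Klf2 had 215 and 293 CPM at 4C with inhibitor and 228 and 276 CPM without. The 37C libraries without inhibitor, at 1160 and 1050 CPM for Nfkbia and 613 and 589 CPM for Klf2, lay above all 4 libraries at 4C, and the 37C libraries with inhibitor lay at 265 and 322 CPM and at 170 and 204 CPM. The difference between temperatures was -1.91 for Nfkbia and -1.64 for Klf2 on the log2 scale and did not pass (edgeR adjusted p = 0.37 to 0.417).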

How the data were processed

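The data were single-cell 3′ transcript counts of dissociated 4T1 tumours from 8 libraries, 4 of them at 37C. The authors deposited a table of UMI counts per gene and cell barcode for each library and a table of cell types. The submitters' processing notes name the GRCm38 genome, Seurat, featureCounts 1.6.0, SAMtools, UMI-tools and STAR 2.7.1a, and no source here states the filters behind the tables. Cells without a deposited type entered only where stated, and doublets were not called again. Counts were summed per library and per type over 17578 gene identifiers, of which 17520 matched a symbol, and 2 rows of inserted genes were left out.

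Sums over all annotated cells were tested in 1 model of 4 groups and 8 libraries with edgeR 4.0.16 (quasi-likelihood test, TMM scaling, filterByExpr, Benjamini-Hochberg adjustment, threshold 0.05) in R 4.3.3. Types with at least 10 cells in each 37C library (tumour cells, macrophages and T cells) were tested in the 4 libraries at 37C, and NK cells were not. CPM are counts per 1000000 UMIs of the library's annotated cells or of the type. A gene's difference was divided over types from group sums into a part from levels and a part from UMI shares. Scripts were tested on simulated data. Intervals are Clopper-Pearson and cover counting error only. DESeq2 1.42.0 and limma 3.58.1 (log2 of CPM plus 10) served as alternatives. Annotated UMIs per library were 158314 to 199929 at 37C and 23212 to 65149 at 4C.

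The members and the gene lists were chosen with earlier results of these data known. The named genes were the called genes with the largest fold changes (up to 10 higher and 20 lower over all cells, up to 5 and 5 within a type, at a mean log2 CPM of at least 4), called members of the lists, and a fixed set of early and macrophage genes. Predicted genes were counted and not named, and 1 further called gene is not reported here. The test of differences between types, an unweighted limma fit, the short motif and the counts of cells with a gene or with markers of another type were chosen after seeing the data. The letters A and B were not treated as pairing libraries across conditions in the main tests, since they mark aliquots of different suspensions. Fits with the letter as a block are given below. Deviations of aliquot A from its group mean correlated at 0.229 between the 37C groups, and the cause was not tested.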

Additional observations from a re-analysis of the deposited data

Results flagged for a closer look

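The effect of the inhibitor at 37C differed between macrophages and tumour cells for 4 genes (edgeR, type by inhibitor, library as a block). For H2-Aa the macrophage minus tumour-cell difference in log2 fold change was -3.54 ± 0.57 (edgeR adjusted p = 1.31e-06), and for H2-Ab1 it was -2.61 ± 0.51 (edgeR adjusted p = 0.000272). Both chains of the class II molecule were higher with inhibitor in tumour cells and had lower values with inhibitor in macrophages. Mean levels in tumour cells were far below those in macrophages.

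Cxcl10, an interferon-induced chemokine, gave a difference of 5.23 ± 1.01 (edgeR adjusted p = 0.000272). Macrophages counted 27 and 8 Cxcl10 UMIs with inhibitor and 1 and 0 without, whereas tumour cells had 246 and 107 CPM with inhibitor and 195 and 717 CPM without. The macrophage UMIs came from 4 and 3 cells with inhibitor and from 1 and 0 cells without.

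Tpsab1, a mast-cell tryptase, gave a difference of -6.97 ± 1.39 (edgeR adjusted p = 0.000317). In cells called macrophages it counted 320 and 0 UMIs with inhibitor and 618 and 22 without, which overlapped. Cells with at least 3 UMIs of mast-cell markers, 2 and 0 with inhibitor and 2 and 1 without, held 319 of the 320 UMIs in aliquot A with inhibitor, and 618 of 618 in aliquot A and 19 of 22 in aliquot B without. Cxcl10 and Tpsab1 are named for this difference, after their values were seen.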

How the results depend on the processing

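Over all annotated cells, the 41 calls became 8 with DESeq2's Wald test, 75 with no filter on low counts, 256 with all barcodes and 23 at a fixed composition, and 15 to 40 with 1 library left out. The tumour-cell count of 19 became 4 with the Wald test and 32 with the replicate block, and 7 to 32 with 1 library left out. The T-cell count of 9 became 3 with the Wald test, 14 with no filter, 16 with the replicate block and 2 with all libraries that hold enough T cells, and 8 to 28 with 1 library left out. The macrophage count of 0 became 4 with no filter and 5 to 36 with 1 library left out. The count of 0 for the interaction with temperature became 14 with no filter, 2 with the replicate block and 87 with all barcodes, and 0 to 17 with 1 library left out. The replicate block gave 50 calls over all cells. The unweighted limma fit gave 56, which is the like comparison for the 23 at a fixed composition. To see whether aliquots of the same letter varied together, each gene's deviation of aliquot A from its group mean was correlated between groups. The correlation of these deviations was 0.229 between the 37C groups and -0.0295 to 0.0886 for other pairs of groups. It does not measure how alike the expression profiles of the libraries were.

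The early-response difference of -0.686 percentage points was -0.583 without Fos, Jun and Junb, and -0.739 to -0.632 with 1 library left out. Share differences ran from 1.37 to 18.2 for tumour cells, 4.95 to 14.4 for macrophages, -18.7 to -10.4 for T cells and -7.75 to -2.06 for NK cells with 1 library left out.

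No named call reversed. Among genes not called over all cells, the log2 fold change with all barcodes became 0.07 for H2-Aa, 0.09 for H2-Ab1, -0.06 for Ccl2, -0.45 for Mdm2, -0.67 for Malat1 and -0.60 for Neat1, each a change of sign. Fixed composition turned Ccl2 to -0.09, Malat1 to -0.35 and Lgals3 to -0.19, the unweighted limma fit turned Malat1 to -0.35, and the replicate block turned it to -0.10. With 1 library left out, log2 fold changes ran from -1.33 to 0.03 for Myc, -1.59 to 0.33 for Cxcl1, -0.25 to 0.89 for Ccl2, -2.3 to 0.18 for Il1b, -1.54 to 0.81 for Malat1, -0.94 to 0.3 for Mt1, -0.2 to 0.28 for Lgals3, -1.35 to 0.62 for Cxcl10 and -4.87 to 2.29 for Tpsab1. The cause was not tested. T-cell sums were the smallest tested, at 9493 to 31492 UMIs per library.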
